A study of Mus musculus with 6 samples.

Results

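Nuclear receptors are transcription factors, many of which are switched by small lipid-soluble molecules such as steroids, thyroid hormone, retinoids, bile acids, oxysterols and fatty acids. Most bind DNA as dimers at repeats of a short core motif, often with an RXR protein as the partner, and recruit coactivators or corepressors. In the intestinal epithelium members of the family are known for control of lipid, bile acid and drug handling, of calcium uptake and of the daily clock. Here the 43 listed receptor genes other than the HNF4 pair were followed, out of 21938 protein-coding genes in the annotation. They were listed by name, with earlier results of these data known, and their loci were taken as the gene body plus 10 kb on either side.

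The assay was ATAC-seq, in which a transposase tags DNA where chromatin is open and peaks mark stretches with more fragments than the background. The samples were intestinal crypts, the pits of the epithelium with its stem and dividing cells, from 3 wild-type (WT) mice and 3 conditional knockouts (cKO) of Arid3a, the gene of a factor that binds A+T-rich DNA. In cKO animals the Arid3a alleles are floxed (fl/fl) and 1 copy of a tamoxifen-inducible Cre is driven by the Villin promoter (VillinCre-ERT2+/-), so deletion is aimed at Villin-expressing epithelium and cells beneath it retain the gene. Tamoxifen was given to both genotypes on 3 days in a row, with collection 1 month after the first dose, and the sources used here do not give the animals' ages or whether WT animals carried Cre.

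The 6 lists held 40492 to 58297 peaks on chromosomes 1 to 19, X and Y, with an inferred background coverage of 1.75 to 2.29 fragments per base. The shortest list of each genotype was WT 1 with 40492 peaks and cKO 2 with 46415. Merged by an overlap of at least 1 base, the lists gave 71286 consensus peaks, of which 32748 were called in all 6 samples. At Arid3a itself the promoter peak was called in every sample, at percentiles of 64.7, 61.1 and 54.4 in WT and 46.5, 56.7 and 43.7 in cKO (values here and throughout in the order of replicates 1, 2 and 3), which does not check the deletion, since peaks do not read the exons removed. By overlap with the promoter window, 9 of 10 epithelial marker genes had a peak in all 6 samples and 0 had none in any. Of leukocyte genes, 1 of 7 had a peak in all 6 and 6 had none. These counts were 3 of 8 and 3 for mesenchymal, 1 of 4 and 3 for endothelial, and 1 of 5 and 3 for neuronal or glial genes. The mesenchymal promoters called by summit in all 6 samples were Col1a1 and Pdgfra, at medians of 74.4 and 80.8. The epithelial promoters called in this way had a median of 70.3. Called by summit, the epithelial promoters numbered 6 to 8 per list and the mesenchymal ones 2 to 4, and their part in the receptor values was not tested.

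The percentile of a peak is the share of its own list with a lower fold enrichment, so that 100 is the strongest. Percentiles of peaks outside promoters still moved with list length. The mean over those called in every sample was 47.2 in WT 1, the shortest list, and 58.7 in cKO 1, the longest. Promoters did not rise in this way. The mean over protein-coding promoters called in every sample was 79.1 in both lists, and that over receptor promoters was 65.4 in WT 1 and 59.2 in cKO 1. A promoter peak is one whose summit lay from 1000 bp upstream to 100 bp downstream of a transcription start site (TSS) of the gene, and where several did the highest counted. Of the 43 receptors, 31 had a promoter peak in every sample, 72.1%, against 44.6% of protein-coding genes. For 9 receptors it was called in 1 to 5 samples, and for Nr0b1, Nr2e1 and Rxrg in 0 of 6, each with no summit in the promoter window. Many of these genes have several starts, and for 9 of the 31 receptors (Nr1h3, Nr2c2, Nr3c1, Nr4a2, Nr6a1, Ppard, Rara, Rarg and Vdr) the highest promoter peak was not the same consensus peak in every sample. When any overlap of a peak with the window was enough, 37 receptors had one in all 6 samples, 86% of them against 58.6% of protein-coding genes, a rule added after the data were seen. The plot of promoter percentiles shows every receptor in every sample.

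**Figure D1:**
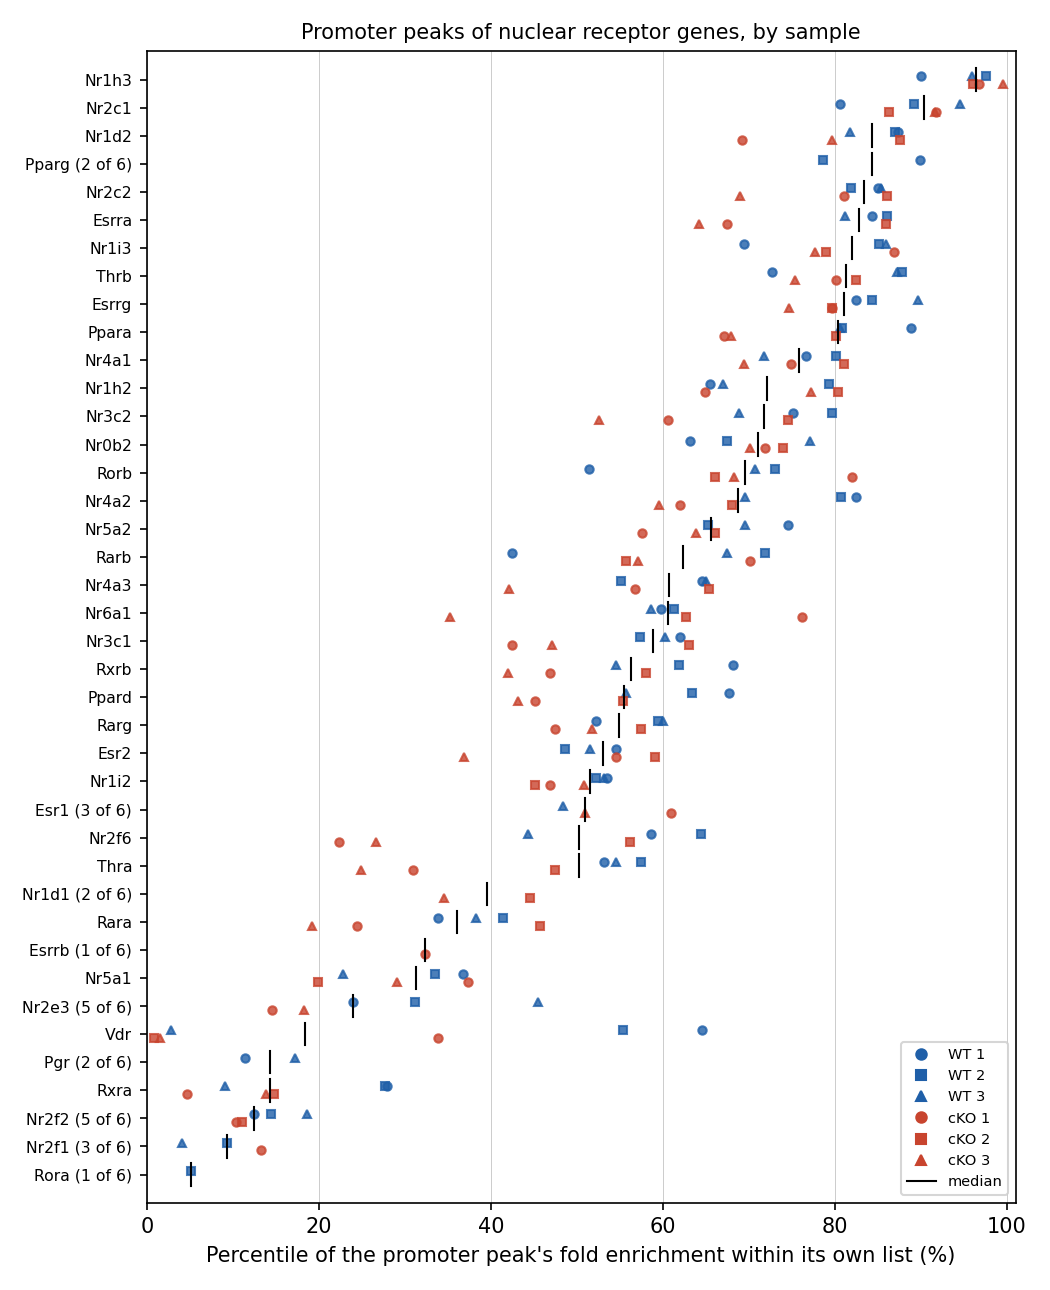
Percentile of the promoter peak's fold enrichment within its own list (x axis, %) for the 40 receptors with a promoter peak in any sample (y axis), with WT in blue, cKO in red, a symbol per replicate and a bar at the median. Nr1h3 lies at the top with a median of 96.4, Rxra and Vdr lie at 14.3 and 18.4, and points of the genotypes are mixed for most genes.

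Nr1h3, which encodes the oxysterol receptor LXRα, had the strongest promoter. Its percentiles were 90.0, 97.6 and 95.9 in WT and 96.7, 96.0 and 99.5 in cKO. The genotypes overlapped, and the lowest value belonged to WT 1. The peak rose 10.5 to 16.9-fold over background on 68 to 171 fragments. The gene has alternative starts, and the highest peak lay at the one shared with the neighbouring gene Acp2 except in WT 2. Followed as 1 consensus peak, that shared promoter was at 90.0, 93.9 and 95.9 in WT and 96.7, 96.0 and 99.5 in cKO without overlap, a difference of 4.17 points (adjusted p = 0.771, limma). The gene for the other oxysterol receptor, Nr1h2 (LXRβ), had a median of 72.1.

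Nr2c1 and Nr2c2 encode the testicular orphan receptors TR2 and TR4. The Nr2c1 promoter was at 80.6, 89.2 and 94.5 in WT and 91.7, 86.3 and 91.6 in cKO, a median of 90.4. Nr2c2 was at 85.0, 81.9 and 85.3 in WT and 81.0, 86.0 and 69.0 in cKO, with cKO 3 below the other 5 samples. For both genes the genotypes overlapped.

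Among the clock receptors, Nr1d2, the gene for the repressor REV-ERBβ, was at 87.3, 87.0 and 81.7 in WT and 69.2, 87.6 and 79.7 in cKO. Its summit lay at -55 bp from the TSS (negative upstream) in all 6 samples, at 167 to 424 fragments, the largest median (354) of any receptor promoter. The highest and the lowest values were both cKO samples. The partner gene Nr1d1 (REV-ERBα) had a summit in the window in cKO 2 and cKO 3 alone, yet a peak covered the window in every sample, at 61.6, 53.3 and 45.6 in WT and 29.9, 44.6 and 34.5 in cKO. The summits lay from -137 to 1349 bp of the nearest TSS, so the calls in cKO alone followed the place of the summit. Rorb, an activator gene of the same group, had a median of 69.5. Rora had a summit in the window in WT 2 alone, at percentile 5.17 with 8 fragments, and its covering peak was in all 6 samples at 71.6 to 90.7 with the summit 139 to 163 bp downstream.

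The estrogen-related receptors, orphan factors known for energy metabolism, stood high. Esrra was at 84.3, 86.1 and 81.2 in WT and 67.4, 85.9 and 64.2 in cKO, with cKO 2 inside the WT range and the other two below it. Esrrg was at 82.4, 84.3 and 89.6 in WT and 79.7, 79.6 and 74.7 in cKO, and here every cKO value was below every WT value (adjusted p = 0.771, limma). Esrrb had a summit in the window in cKO 1 alone, at 32.4 with 15 fragments. By overlap it was also called in cKO 3, at 20.7.

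For the fatty acid receptors, Ppara was at 88.8, 80.8 and 80.6 in WT and 67.1, 80.1 and 67.9 in cKO. The genotypes did not overlap, but cKO 2 lay within 1 point of the lowest WT sample, and the difference of -11.7 points had an adjusted p of 0.771 (limma). Ppard had a median of 55.5. Pparg had a promoter summit in WT 1 at 89.9 and WT 2 at 78.6 and in no other sample. A peak covered its promoter window in all 6, at 89.9, 78.6 and 91.4 in WT and 84.9, 83.3 and 78.9 in cKO, with summits from -232 to 178 bp of a TSS, so here too the calls followed the place of the summit.

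Thrb, a thyroid hormone receptor gene, was at 72.7, 87.8 and 87.2 in WT and 80.1, 82.4 and 75.3 in cKO, with overlap. Its paralogue Thra was lower, at a median of 50.2, and is described with the genotype differences. Nr1i3, the gene for the xenobiotic sensor CAR, was at 69.4, 85.1 and 85.9 in WT and 86.9, 79.0 and 77.7 in cKO, with the lowest value in WT 1 and the highest in cKO 1. Nr1i2, which encodes the related drug sensor PXR, had a median of 51.5 and a narrow spread, from 45.1 to 53.5.

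Nr4a1 encodes an immediate-early orphan receptor. Its promoter was at 76.6, 80.1 and 71.7 in WT and 74.9, 81.1 and 69.4 in cKO, and cKO held both ends of the range. Nr4a2 and Nr4a3 of the same family had medians of 68.7 and 60.7. By the median the order of the first 10 receptors was Nr1h3, Nr2c1, Nr1d2, Nr2c2, Esrra, Nr1i3, Thrb, Esrrg, Ppara and Nr4a1, but from Nr1d2 to Ppara the medians ran only from 84.3 to 80.3 while single samples ranged from 64.2 to 89.6, so those neighbours were not separated by their spread.

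Further down, Nr3c2 (the mineralocorticoid receptor) was at a median of 71.7, Nr0b2 (the bile acid repressor SHP) at 71, Nr5a2 (LRH-1, a regulator of bile acid synthesis and crypt renewal) at 65.6, Rarb at 62.3, Nr6a1 at 60.6, Nr3c1 (the glucocorticoid receptor) at 58.8, Rxrb at 56.3, Rarg at 54.9, Esr2 at 53 and Nr2f6 at 50.3. Rara, the most widely expressed retinoic acid receptor gene, was at 36.1 and Nr5a1 (SF-1, a steroidogenic factor) at 31.3. The lowest of the 31 were Vdr, the vitamin D receptor gene, at 18.4 and Rxra, the commonest dimer partner, at 14.3. The Rxra peak had 44 to 107 fragments at its summit.

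For Vdr the median of 18.4 mixed separate peaks at different starts of the gene. In WT 1, WT 2 and cKO 1 the summit lay between -264 and 59 bp of a start and the percentiles were 64.5, 55.4 and 33.9, on 83, 114 and 209 fragments. In WT 3, cKO 2 and cKO 3 it lay between -833 and -693 bp of another start, at 2.87, 0.791 and 1.56, on 44, 28 and 55 fragments. The strongest peak that overlapped a promoter window was at 64.5, 55.4 and 50.3 in WT and 33.9, 52.0 and 24.4 in cKO, a median of 51.1.

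The remaining receptors had partial calls. Esr1, the estrogen receptor gene, was called by summit in WT 3 at 48.4, cKO 1 at 60.9 and cKO 3 at 51, and by overlap in all 6 at 35.9 to 60.9. Nr2f2 (COUP-TFII) was called in all but cKO 3 at a median of 12.5, and by overlap in all 6 at 48.7 to 76.1 with the summit at -1346 to -1162 bp. Nr2e3, a photoreceptor factor gene, was called in all but cKO 2 at a median of 24.0, and by overlap in all 6 at 14.6 to 45.5. Nr2f1 (COUP-TFI) was called in WT 2, WT 3 and cKO 1 at 4.15 to 13.3. Pgr, the progesterone receptor gene, was called in WT 1 at 11.4 and WT 3 at 17.2, on 12 fragments at most, and by overlap also in cKO 1 and cKO 3. Nr2e1 had a peak overlapping its window in 1 WT and 2 cKO samples, and Nr0b1 and Rxrg in 0 of 6, which at this depth is a promoter not called and not one shown to be closed.

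The order depended on the measure. Ranked by −log10 q, which grows with the number of fragments as well as with the fold, Nr1d2 (99.5), Esrra (98.5), Ppara (95.1), Nr2c2 (94.5) and Nr3c2 (93.1) led and Nr1h3 was eighth, the order being drawn in the plot of both measures. Rxra and Vdr rose to 53 and 53.1.

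**Figure D2:**
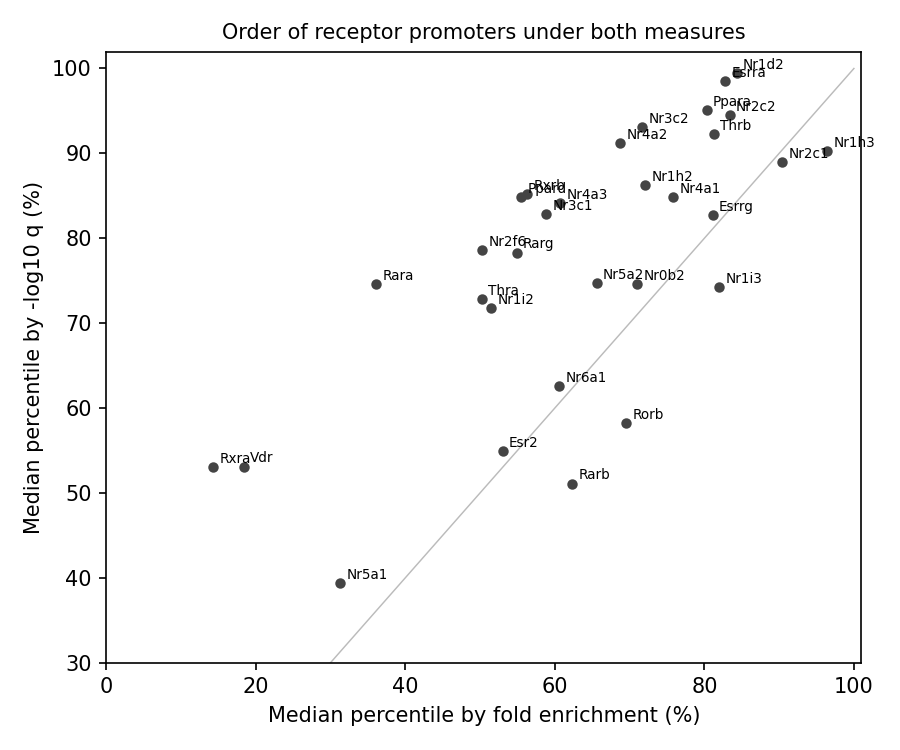
Median percentile over 6 samples by fold enrichment (x axis, %) and by −log10 q (y axis, %) for the 31 receptors with a promoter peak in all 6 samples, with a line of equality. Rara, Rxra and Vdr lie well above the line and Rarb and Rorb below it.

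Beyond their promoters the receptor loci held many peaks. In all they contained 343 consensus peaks, of which 65 were at a receptor's own promoter, 26 at the promoter of another gene and 252 were distal, 178 of them in introns. All 6 samples shared 88 of the distal peaks (34.9%) and 74 were in 1 sample, against 35.6% in all 6 for the peaks of the whole series outside promoters. Own-promoter peaks were called in all 6 in 54 of 65 cases, 83.1% against 79.1% of all promoter peaks. Per list the loci took 0.457% to 0.479% of all peaks, from 194 peaks in WT 1 to 270 in cKO 1, in the order of the lists' lengths.

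Distal peaks called in all 6 samples were most numerous at Esrrg, with 10 of 26, followed by Rxra with 8 of 14, Thrb with 8 of 19, and Nr5a2 and Nr3c2 with 7 each of 20 and 15. Vdr had 6 of 12. These genes differ in length, from 56.2 kb for Vdr and 86.5 kb for Rxra to 606 kb for Esrrg, and longer loci had more room for peaks. Length and count did not run together throughout, since Rora, at 734 kb the longest, had 6 distal peaks with 2 in all 6 samples, and Nr6a1, at 204 kb, had 13 with 0 in all 6. The retinoid partner Rxrg had 1 distal peak, in cKO 3 alone, and Nr0b1 had 0 peaks of any kind. By family, the loci of PPAR genes held 13 distal peaks called in all 6 samples, those of ERR and thyroid hormone receptors 10 each, steroid receptors 9, and RXR and the NR5A and NR6A genes 8 each.

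**Figure D3:**
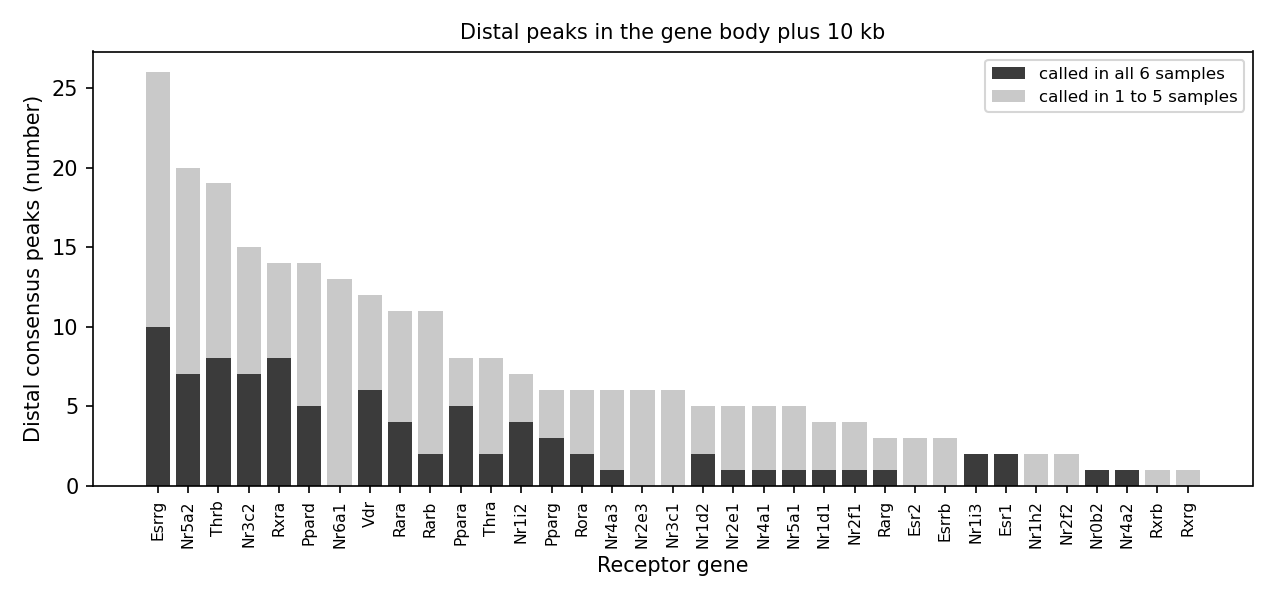
Number of distal consensus peaks (y axis) in the gene body plus 10 kb for each receptor with any (x axis), split into those called in all 6 samples (dark) and in 1 to 5 samples (light). Esrrg has the most of both kinds, and all 13 at Nr6a1 are light.

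The strongest distal peak lay upstream of Nr4a1, at -7.81 kb from its TSS and at percentiles of 97.4, 93.7 and 91.3 in WT and 86.9, 95.5 and 87.2 in cKO, on 143 to 301 fragments. Its median of 92.5 was above that of the Nr4a1 promoter (75.8). It counts as distal by the annotated starts alone. Around its summit the G+C content was 65.2% and the CpG ratio (observed over expected) 1.03. Distal receptor peaks had medians of 50.2% and 0.234, and own-promoter peaks 64.2% and 0.739. At Nr3c2, an intronic peak at -72.3 kb from the nearest annotated start was at 74.0, 93.2 and 87.7 in WT and 89.4, 82.0 and 90.0 in cKO. A second Nr3c2 peak, 4.62 kb downstream of a start, was at 81.2, 89.3 and 86.1 in WT and 76.3, 83.0 and 76.3 in cKO. A peak at -6.45 kb from Nr5a2 was at 79.9, 81.8 and 84.5 in WT and 80.3, 75.3 and 82.2 in cKO. One in an untranslated exon of Rora lay 92.2 kb downstream of the nearest annotated start. It was at 70.3, 81.1 and 73.7 in WT and 82.7, 80.9 and 83.7 in cKO. The genotypes overlapped at all 5. The sequences around the summits at Nr4a1 (chr15:101246358-101246558) and Nr3c2 (chr8:76912792-76912992, GRCm38.p6 of RefSeq, plus strand) show the strongest distal element and the strongest one with a searched motif, an AP-1 site in capitals:
Nr4a1 -7.81 kb: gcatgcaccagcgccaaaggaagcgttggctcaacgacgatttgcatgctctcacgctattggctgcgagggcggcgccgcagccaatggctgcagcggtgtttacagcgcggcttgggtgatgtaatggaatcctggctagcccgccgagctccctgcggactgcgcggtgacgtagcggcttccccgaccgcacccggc
Nr3c2 +4.62 kb: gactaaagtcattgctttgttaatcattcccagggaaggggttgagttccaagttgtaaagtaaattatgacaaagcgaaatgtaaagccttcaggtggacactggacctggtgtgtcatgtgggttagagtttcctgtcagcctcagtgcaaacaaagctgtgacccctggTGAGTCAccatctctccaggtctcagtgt

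Motifs were sought as exact letters on both strands within 100 bp of the summit. The receptor core motif AGGTCA was in 38 of the 252 distal receptor peaks (15.1%, against 17.3% of all peaks outside promoters) and in 7 of the 65 own-promoter peaks (10.8%, against 9.19% of all promoter peaks). Longer motifs that hold it were counted again, namely the NR5A site CAAGGTCA in 5 distal peaks (1.98% against 1.83%), the ROR and REV-ERB site TAGGTCA in 7 (2.78% against 2.2%) and the direct repeat DR1 in 1 (0.397% against 0.116%). HNF4 sites (CAAAGTCCA or CAAAGTTCA) were in 7 distal peaks (2.78% against 3%), AP-1 sites (TGACTCA or TGAGTCA) in 19 (7.54% against 9.56%) and the ARID3 site (ATTAAA or ATCAAA) in 46 (18.3% against 19%). Own-promoter peaks held an HNF4 site in 2 cases (3.08% against 0.993%), an AP-1 site in 2 (3.08% against 3.45%) and an ARID3 site in 3 (4.62% against 6.83%). A match shows only that the letters are there, and does not show binding. G+C content was likewise near that of the series, with medians of 64.2% and 63.7% for receptor and all promoter peaks and 50.2% and 49.3% for distal receptor and all other peaks.

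The design asked whether the loss of Arid3a changed accessibility. Among the 343 receptor-locus peaks, 0 were called in all 3 cKO and 0 WT samples, against 0.464% of all consensus peaks, and 0 in all 3 WT and 0 cKO samples, against 0.111%. A count of 0 of 343 allows a share of up to 0.875%, so neither count is distinguishable from the share of the series at this number of peaks. The count for cKO became 11 without cKO 2, the shortest cKO list, 5 without WT 3 and 1 without WT 2 or cKO 3, since the rule then asks for fewer samples. The count for WT became 2 without WT 1. The shares of all consensus peaks under these shorter rules are not given here. The counts can therefore not be read as a gain or loss at the receptors.

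Short of that rule, 12 peaks were called in 2 cKO and 0 WT samples (3.5%, against 2.87% of all consensus peaks) and 2 in 2 WT and 0 cKO samples (0.583% against 1.14%). The 12 included 4 at Nr6a1 (GCNF), an orphan receptor gene of germ cells, and the promoter peak of Esrrb, and all but 1 were called in cKO 1 and cKO 3, the longest cKO lists. The 2 were at Nr6a1 and Ppard. Peaks called in 3 cKO samples and 1 WT sample numbered 6 (1.75% against 2.04%), and the reverse 0 (0% against 0.495%). All 6 were distal, and 2 were in introns of Nr5a2, and 1 each was at Esrrg, Rxra, Thrb and Vdr. The Nr5a2 peak 53.5 kb downstream of the nearest annotated start was called in WT 3 at 34.3. In cKO 1, 2 and 3 it was at 16, 20.9 and 29.5, so WT 3 was above all cKO samples. The Esrrg peak was called in WT 2 at 13.3 and in cKO at 61.2, 3.58 and 37.1.

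Across the 163 receptor-locus peaks called in all 6 samples, limma on the percentiles called 0 higher and 0 lower in cKO after adjustment, against 0% and 0% of the 32748 peaks tested, and the smallest adjusted p was 0.771. At an unadjusted p under 0.05 there were 8, 2 higher (background 3.02%) and 6 lower (background 2.71%), in all 4.91% against 5.73%. Percentiles of the genotypes did not overlap at 7 peaks that were higher in cKO, 4.29% against a background of 4.66%, and at 13 that were lower, 7.98% against 7.04%. Both shares are near those of the series. Without cKO 2 the unadjusted count was 31 of 167, 18.6%, beside 15% of all peaks, without cKO 1 it was 2 of 164, 1.22% beside 2.77%, and without cKO 3 it was 3 of 170, 1.76% beside 2.4%, with 0 adjusted calls in each.

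Receptor promoters were on balance lower in their lists in cKO, by a measure that is described and not tested. The mean percentile over the 31 receptors was 65.4, 68.3 and 63.7 in WT and 59.2, 63.9 and 54.3 in cKO. cKO 2 lay above WT 3, so the genotypes overlapped. The means were 65.8 ± 2.31 and 59.1 ± 4.80 (SD, n = 3 each), a difference of -6.71 points, beside -1.82 points for protein-coding promoters called in all 6 samples (81.0 ± 1.70 and 79.2 ± 1.66). By consensus peak, the median difference was -6.66 over the 54 own-promoter peaks, of which 12 (22.2%) were higher in cKO, and -1.17 over all promoter peaks, of which 39.8% were higher. These 2 sets of promoter peaks stood at different levels, with median percentiles of 56.5 and 81.1. They also differed in spread, with a median SE of 7.48 and 4.73 (limma). No background of the same level was taken, so the larger fall is not shown to be particular to receptors. Ranked by −log10 q the mean difference of the receptor promoters was -0.697 points, and without cKO 3 it was -4.29. The median number of fragments at these promoters ran the other way, at 60, 107 and 130 in WT and 159, 89 and 131 in cKO, and the lowest of each genotype belonged to its shortest list. Promoters of the 5 epithelial marker genes tested were also lower in cKO, with a median difference of -8.06 points and 0 higher. Percentiles over all 10, with a promoter not called by summit set to 0, were summed per sample. The sums were 463 to 547 in WT and 337 to 446 in cKO, without overlap, but they depend on the calls as well as the ranks. By summit, Lgr5 was called in 2 WT and 0 cKO samples, Epcam in 3 and 2, Krt20 in 1 and 0 and Krt8 in 1 and 2. By overlap with the window, 9 of the 10 genes had a peak in all 6 samples. For most genes with a missing call, a peak thus covered the window with its summit outside, and the call is not a loss of the promoter peak. Sums over mesenchymal genes were 150 to 220 in WT and 174 to 262 in cKO, and the leukocyte gene Cd68, the only one of its list called, was at 2.57 to 24.6 and 1.89 to 18.3. The part of depth and of these markers in the difference was not tested.

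Distal receptor peaks had a smaller mean difference than receptor promoters. The mean percentile of the 88 called in all 6 samples was 42.6, 49.8 and 51 in WT and 48.1, 46.1 and 44.5 in cKO, or 47.8 ± 4.54 and 46.2 ± 1.80 (SD, n = 3 each). The difference of -1.56 points was within the spread of the samples. All peaks outside promoters called in all 6 samples differed by 1.77 points (53.7 ± 5.75 and 55.5 ± 3.23). By consensus peak, the median difference was -2.80 over the 88 distal peaks, of which 42% were higher in cKO. Over all peaks outside promoters it was 1.31, with 55.9% higher. Ranked by −log10 q the mean difference of the distal receptor peaks was 2.12, so its sign was not fixed, and without WT 3 it was -0.0382.

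**Figure D4:**
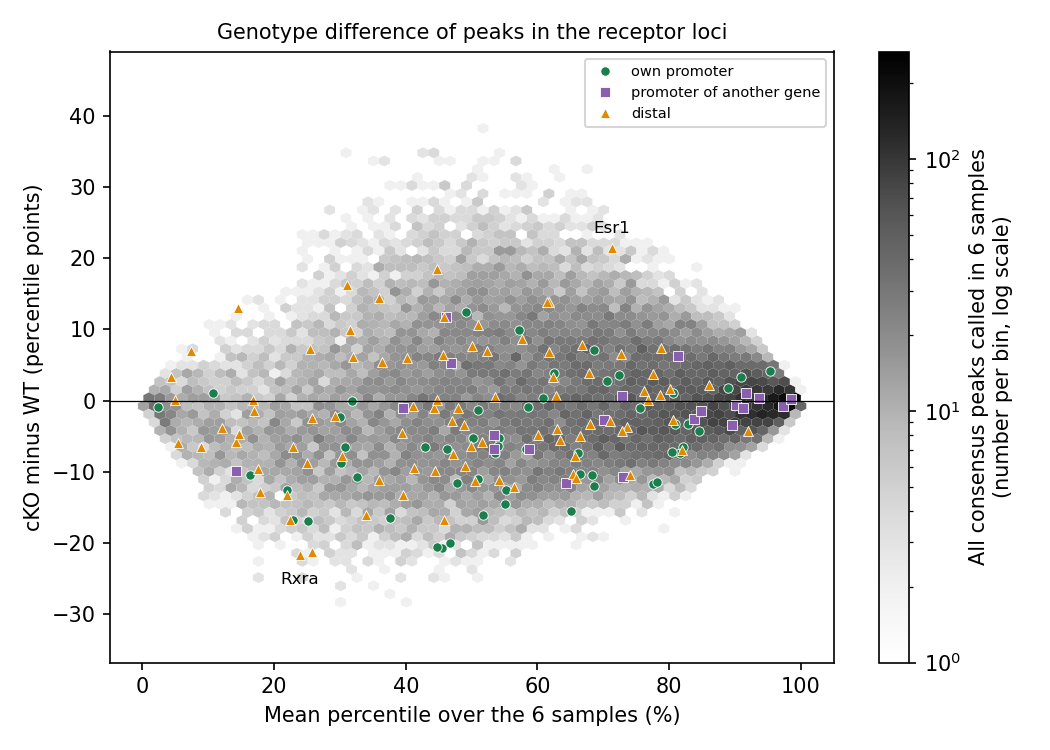
Difference in percentile, cKO minus WT (y axis, points), against the mean percentile over 6 samples (x axis, %) for the 163 receptor-locus peaks called in all 6 samples, over the density of all 32748 such peaks in grey (log scale). Receptor peaks lie within the grey cloud, with the largest differences at Esr1 (21.5 points) and Rxra (-21.7 points).

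The largest fall in percentile was at Rxra, in an intron 4.83 kb downstream of a start, at chr2:27714980-27715709. It was at 34.8, 41.3 and 28.4 in WT and 16.0, 14.3 and 9.13 in cKO, and every cKO sample was below every WT sample. The difference was -21.7 points (SE 5.95, unadjusted p = 0.00485, adjusted p = 0.771, limma). The fragments at the summit were 29, 54 and 53 in WT and 59, 28 and 35 in cKO, and these overlapped. By −log10 q the difference was -19.0 points.

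Vdr had a pair of peaks among the 6 largest falls, as shown in the maps of 3 receptor loci. The peak at -4.01 kb (chr15:97914304-97915321) was at 38.4, 41.9 and 28.9 in WT and 8.46, 30.6 and 6.1 in cKO, where cKO 2 lay above WT 3. The promoter consensus peak (chr15:97907347-97909170) was at 64.5, 55.4 and 50.3 in WT and 33.9, 52.0 and 24.4 in cKO, again with cKO 2 inside the WT range. The differences were -21.3 and -20.0 points, with an adjusted p of 0.771 for both (limma), and by −log10 q they were -14.4 and -3.90.

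The other falls were at promoters. Nr2f6, which encodes the orphan receptor EAR2, was at 58.6, 64.4 and 44.3 in WT and 22.3, 56.2 and 26.7 in cKO at chr8:71380729-71383643, a difference of -20.7 points with overlap. Thra was at 53.1, 57.5 and 54.5 in WT and 30.9, 47.4 and 24.9 in cKO at chr11:98741711-98742347, a difference of -20.6 points (SE 8.65) without overlap. Nr2e3 was at 24.0, 31.2 and 45.5 in WT and 14.6, 16.9 and 18.3 in cKO at chr9:59947556-59949906, a difference of -16.9 points (SE 6.82) without overlap. All 3 had an adjusted p of 0.771 (limma), and by −log10 q the differences shrank to -5.68, -4.65 and -8.43. Nr2f6 was at -31.3 points without cKO 2 and Nr2e3 at -11 without WT 3.

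The largest rise in percentile was in an intron of Esr1, 9.17 kb downstream of a start, at chr10:4620735-4621571. It was at 45.5, 67.9 and 68.3 in WT and 86.8, 71.3 and 88.1 in cKO, with every cKO sample above every WT sample. The difference was 21.5 points (SE 8.09, unadjusted p = 0.0252, adjusted p = 0.771, limma), on 19, 38 and 40 fragments in WT and 56, 30 and 60 in cKO, and by −log10 q it was 14.4. Without WT 1 it was 13.9.

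**Figure D5:**
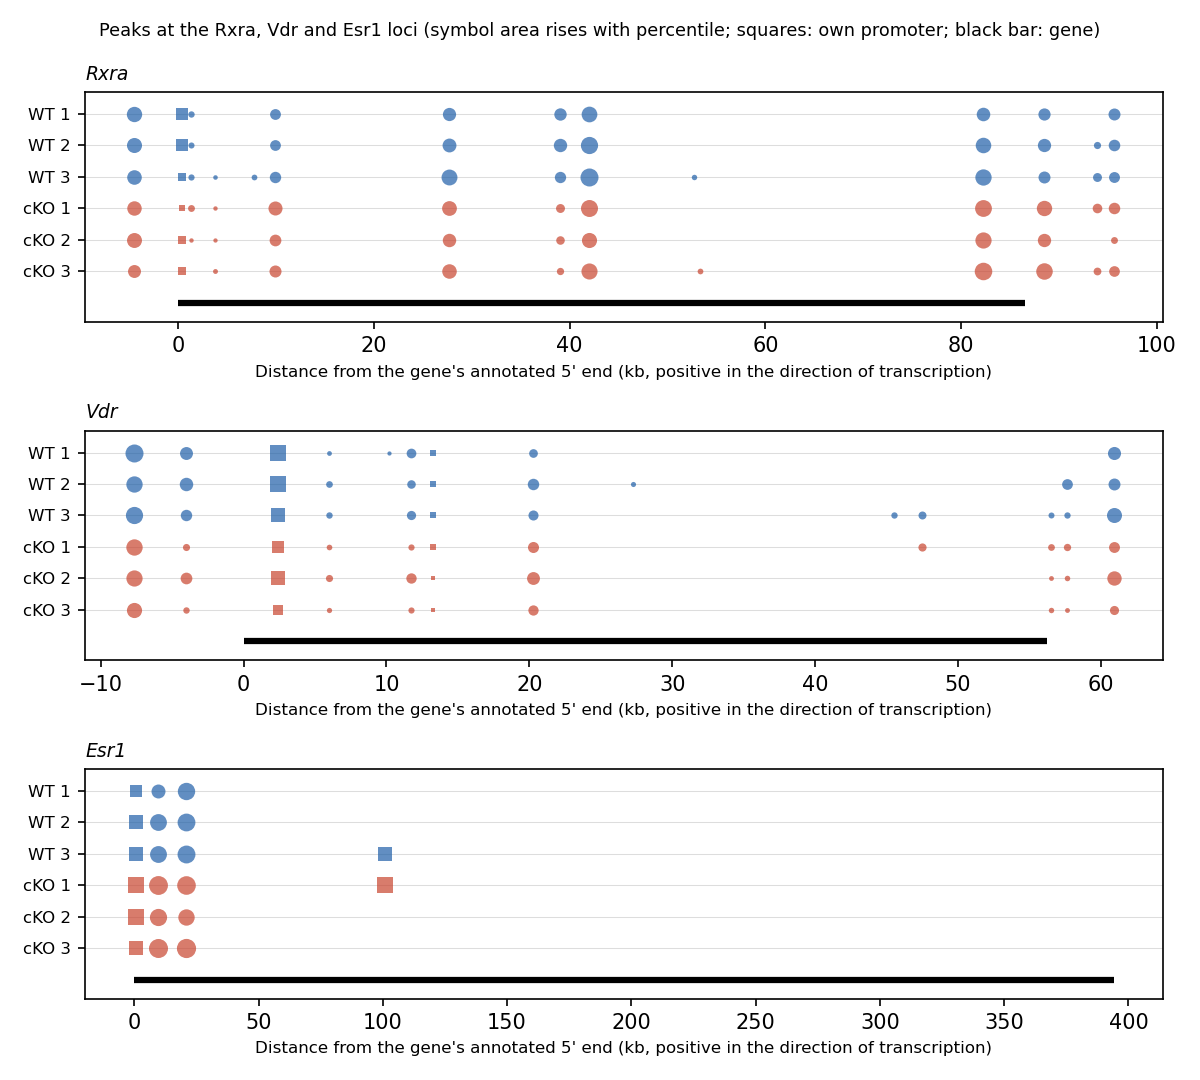
Peaks at the loci of Rxra, Vdr and Esr1 by sample (y axis), placed by distance from the gene's annotated 5′ end (x axis, kb), with the symbol area rising with percentile, squares at own promoters, WT in blue, cKO in red and the gene as a black bar. Nearly the same positions carry a peak in both genotypes, and the sizes differ by sample.

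Rxra also held 2 of the 6 largest rises. The peak 24.7 kb downstream of the nearest start, past the end of the gene (chr2:27764437-27765490), was at 33.7, 40.6 and 32.3 in WT and 55.9, 40.9 and 65.3 in cKO, where cKO 2 and WT 2 differed by under 1 point. The intronic peak at 18.4 kb (chr2:27758005-27759286) was at 42.6, 57.3 and 63.6 in WT and 67.9, 62.7 and 74.3 in cKO, with overlap. The differences were 18.5 and 13.8 points, the second being 7.83 without WT 1, so peaks of the same receptor gene differed in opposite directions, none past the adjusted threshold.

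At Esrrg, the intronic peak 43.9 kb downstream of a start (chr1:187653158-187653974) was at 13.5, 25.9 and 29.5 in WT and 38.3, 45.4 and 34.0 in cKO, a difference of 16.2 points (SE 7.25) without overlap. The one at 58.3 kb (chr1:188055706-188056518) was at 33.8, 60.1 and 70.8 in WT and 70.3, 67.7 and 68.1 in cKO, and its difference of 13.8 points came with WT 1 far below the others. Leaving out WT 1 brought it to 3.24, and leaving out WT 3 to 21.8. The peak upstream of Nr1i3, at -9.54 kb (chr1:171203994-171204839) was at 16.4, 14.9 and 54.9 in WT and 47.3, 32.7 and 49.5 in cKO, where WT 3 was the highest of all 6 samples. The difference of 14.4 points was 8.27, 7.5 and 27.5 without WT 1, 2 and 3. Each of the 6 rises had an adjusted p of 0.771 or 0.774 (limma).

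The sequences of 4 of these 12 peaks are shown for the motifs they hold (GRCm38.p6 of RefSeq, plus strand, 100 bp on either side of the summit): Rxra +4.83 kb (chr2:27715311-27715511), Esr1 +9.17 kb (chr10:4621089-4621289), Esrrg +43.9 kb (chr1:187653517-187653717) and Nr1i3 -9.54 kb (chr1:171204333-171204533). Capitals mark ARID3 sites at Rxra, Esrrg and Nr1i3, the NR5A site with its core motif at Esrrg and a pair of core motifs at Nr1i3. The Esr1 window held none of the motifs searched:
Rxra +4.83 kb: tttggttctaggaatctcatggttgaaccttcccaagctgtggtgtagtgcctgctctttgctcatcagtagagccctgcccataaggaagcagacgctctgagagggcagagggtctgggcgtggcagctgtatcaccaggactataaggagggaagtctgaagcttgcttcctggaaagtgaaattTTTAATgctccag
Esr1 +9.17 kb: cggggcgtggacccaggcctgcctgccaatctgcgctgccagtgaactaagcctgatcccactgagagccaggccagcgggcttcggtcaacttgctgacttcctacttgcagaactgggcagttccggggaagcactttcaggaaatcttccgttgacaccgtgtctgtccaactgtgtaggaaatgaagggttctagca
Esrrg +43.9 kb: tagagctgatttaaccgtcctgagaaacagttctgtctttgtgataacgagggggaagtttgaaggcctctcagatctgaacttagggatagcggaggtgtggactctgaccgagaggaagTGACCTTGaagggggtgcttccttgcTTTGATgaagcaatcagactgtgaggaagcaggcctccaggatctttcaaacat
Nr1i3 -9.54 kb: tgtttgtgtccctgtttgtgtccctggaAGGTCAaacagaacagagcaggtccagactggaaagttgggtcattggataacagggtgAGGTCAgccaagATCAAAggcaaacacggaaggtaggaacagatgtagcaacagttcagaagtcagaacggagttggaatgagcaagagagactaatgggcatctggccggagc

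Genes that work with the receptors were read in the same way at their promoters. The counts in this and the next paragraph stand beside the shares over all protein-coding genes. These were 44.6% with a promoter peak in all 6 samples by summit and 58.6% by overlap, and the lists are short. Of 18 coregulator genes, 14 had a promoter peak in all 6 samples by summit and 18 by overlap, led by Med1, a Mediator subunit that receptors bind, at a median of 97.8, with 0 adjusted calls and a median difference of -3.06 points. Of 10 targets of PPAR receptors, 7 were called in all 6 samples, with a median difference of -10.3 points and 0 adjusted calls. The fatty acid oxidation genes Cpt1a and Ehhadh had an unadjusted p under 0.05, with differences of -19.3 and -10.3 points (adjusted p = 0.771 for both, limma), while Pdk4, at a median of 90.5, differed by 0.641.

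Of the glucocorticoid receptor targets, 6 of 6 had a promoter peak in all samples, led by Fkbp5 at a median of 95.8. LXR targets had 5 of 6, led by Mylip at 87.5, and PXR and CAR targets had 3 of 6, led by Cyp3a13 at 84.6. Vitamin D receptor targets had 2 of 4, led by Cyp24a1, which breaks down vitamin D, at 81.7, and thyroid hormone receptor targets had 2 of 4, led by Klf9 at 61.7. Retinoic acid receptor targets had 1 of 6, the retinoid-metabolising Dhrs3 at 44.3, with a difference of -21.4 points (adjusted p = 0.771, limma). Clock genes had 5 of 6, led by Cry1 at 85.4, with a difference of -13.6 points at Dbp (adjusted p = 0.771, limma). The HNF4 pair, given for reference, had both promoters called in all samples at a median of 82.8. No list had an adjusted call in either direction.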

How the data were processed

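The authors ran ATAC-seq on 3 samples of intestinal crypts from WT mice and 3 from Arid3a cKO mice. They used the nf-core/atacseq pipeline on GRCm38, and peaks were called with MACS2 per sample, without an input. The 6 deposited lists give a score, a fold (ratio of the summit pileup to the local background), a −log10 p and a −log10 q per peak, and the summit offset. Read counts were not used here, so the count test of the study was not run.

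Peaks on 21 chromosomes were kept. Genes came from GENCODE M21 (Ensembl 95), and all 43 symbols matched. Overlapping loci of receptors shared 6 peaks. Each peak's fold was turned into its percentile within the list. Fragments at a summit were recovered from fold and p, and a whole number was found for 3000 of 3000 sampled peaks per list. Background coverage is an inference from the lists. Percentiles of consensus peaks called in all 6 samples were compared with limma 3.58.1 (R 4.3.3, variance trend, two-sided, Benjamini-Hochberg over 32748 peaks, threshold 0.05, no covariate). Replicates are labelled as separate samples, and nothing says more on their origin. An exact permutation test on 3 against 3 could not go below 0.1. Lists of 32748 peaks were simulated with the median spread of the real ones (SD 0.195 of log2 fold). Of 200 peaks changed by a fold of 2, 137 were called for cKO against WT, along with 1 unchanged peak. Every simulated peak had the same spread, and the samples did not differ as a whole or in list length. The share called is therefore not the power in the real lists. Other tools were Python 3.11.15, numpy 2.4.6, pandas 2.3.3, scipy 1.17.1 and matplotlib 3.10.9.

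The receptors, the other gene lists and the motifs were chosen with earlier results of these data known. Named in full were the 10 highest promoters, promoters called in 1 to 5 samples, the 5 loci with most distal peaks called in all 6 samples, the 5 strongest distal peaks and the 6 largest differences in each direction. For the other lists, members past the threshold and the highest promoter were named, and those with an unadjusted p under 0.05 and Pdk4's difference were added after their values were seen, as were the 6 peaks called in 3 cKO and 1 WT sample.

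Alternatives were ranks by −log10 q, centred log2 fold, percentiles among shared peaks, lists cut to equal length, a minimum −log10 q of 5, other promoter windows and loci, overlap by summit windows, absent peaks set to 0, no variance trend, the replicate number as a block and leaving out each sample. Overlap with the promoter window, and leaving out WT 1 and cKO 2 together, were chosen after seeing the data.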

Additional observations from a re-analysis of the deposited data

How the results depend on the processing

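Of 327 values recomputed for 20 results, 317 stayed on the same side of the test, within the spread of the samples or within 1.5 times the count, and 10 moved. The differences with a test, all at the 12 peaks described below, kept their sign. Of 33 recomputed mean differences, which have no test, 2 took the opposite sign, both for the distal peaks, at 2.12 with peaks ranked by −log10 q and 0.553 with a minimum −log10 q of 5. The 12 peaks with the largest differences kept their direction in all 210 recomputed values, at adjusted p from 0.301 to 1. They were chosen for the size of these differences in the same data. Several settings, such as other loci or no variance trend, left the difference itself unchanged. The kept direction is therefore no independent check. The number of adjusted limma calls at the receptors was 0 in both directions under every setting run. The number of receptor-locus peaks was 547 with 50 kb of flank on either side and 326 to 339 with 1 sample left out. cKO-only peaks numbered 0 to 11 with 1 sample left out and 11 without WT 1 and cKO 2, and WT-only peaks 0 to 2 and 4. The shares of all consensus peaks with those samples left out are not given beside these counts. With peaks ranked by −log10 q the mean promoter difference was -0.697. With 1 sample left out the promoter and distal means ran from -9.34 to -4.29 and from -3.71 to -0.0382, and 31 to 32 receptors had a promoter peak in all remaining samples. The unadjusted count at the receptors ran from 2 without cKO 1 to 31 without cKO 2 and 38 of 190 without WT 1 and cKO 2 (20%, beside 14.9% of all peaks), and was 4 by −log10 q (2.45% beside 3.54%) and 15 without the variance trend (9.2% beside 6.86%). The causes were not tested. Deviations of same-numbered samples had correlations of -0.298, -0.0284 and 0.134, and those of other pairs ran from -0.349 to 0.334. With 3 samples per genotype these values cannot decide whether the numbers pair the samples. With the replicate number as a block the count of adjusted calls was 0 in both directions. The faintest promoter peak counted rested on 8 fragments.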
